A study of Homo sapiens and Pan troglodytes with 11 samples.

Results

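Cell-to-cell covariation of 10 transcripts was described in human neurons made from WTC11, an established human induced pluripotent stem cell line. The cells were chosen by library and depth: all cells with at least 100 gene UMIs (unique molecular identifiers, each counting 1 captured molecule) in the 4 human libraries that carried the panel of 10 genes without GAPDH. These were 11342 of the 11832 cells deposited for those libraries and of 41950 cells in the whole series. Human 1, human 2 and human 3 belonged to screen replicate 1, and human 6 was the library of screen replicate 2 with this panel.

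The study asks how human accelerated regions, stretches of otherwise conserved sequence with many human-specific changes, act in 2-week-old excitatory neurons. All libraries came from a CRISPR interference screen, in which a Cas9 without cutting activity is guided to a chosen site to lower its activity, so the cells of a library carried a mixture of guides marked by 28 guide barcodes. Transcripts were read by HyPR-seq, a droplet assay that counts probes hybridised to chosen transcripts in fixed, permeabilised single cells. The labels do not say whether libraries were separate cultures, each species was 1 line, and none (0) of 15 markers of neurons, progenitors, astrocytes and inhibitory neurons was on the panel, so the labelled cell type could not be checked.

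Transcript numbers differ between cells of 1 kind because genes are transcribed in bursts, because cells differ in state and size, and because only a sample of each cell's molecules is counted. Genes that respond to a common signal or cell state then vary together, while genes of opposite states vary against each other. RHOB encodes a small GTPase of actin and endosome traffic whose short-lived transcript rises quickly after many stimuli, and ARHGAP5 encodes a GTPase-activating protein that switches small GTPases off. PUM2 is a Pumilio protein that binds messenger RNAs and represses their translation, also in dendrites, and LAPTM4A is a membrane protein of lysosomes. AKAP6 anchors protein kinase A, NPAS3 is a transcription factor of neural development, and TENM3 is a teneurin of neuronal wiring. BAZ1A is a subunit of chromatin remodelling complexes, PSMA6 of the core proteasome, and DCTD is a deaminase of nucleotide synthesis.

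Human 1 gave 1354 cells, human 2 1192, human 3 1690 and human 6 7106, with 419696 to 1177594 gene UMIs per library. Human 6 differed from human 1 to 3 before any gene was compared. Its median cell had 143 gene UMIs against 267.5 to 363.5 in human 1 to 3, and the leading guide barcode took a median of 7.92% of a cell's guide UMIs against 44.9% to 50.8%. Of its barcodes, 413 (5.46%) also occurred in another library, 400 of them in chimpanzee 5, against 2 to 12 barcodes in human 1 to 3. Chimpanzee 5, the other library of screen replicate 2 with this panel, had a similar median of 148.5 gene UMIs and 10.2% of guide UMIs in the leading barcode. It shared more of its barcodes, 1610 (29.2%), and 1436 of its barcodes also occurred in chimpanzee 4. In human 6 those 400 cells had 2.61% BAZ1A and 5.99% TENM3, near the 2.72% and 6.23% of its other cells, while the cells with the same barcodes in chimpanzee 5 had 5.17% and 10.2%. Screen replicate, depth and library cannot be told apart for human 6, so its results are given separately below, and those on all 4 libraries with and without it.

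To compare cells of unequal depth, each cell was reduced to 100 gene UMIs, averaging over all possible draws. At that depth cells with identical transcript shares would still give negative correlations, since a molecule of one gene takes the place of another. That counting expectation was computed exactly from each library's mean shares and subtracted, and the difference is called the deviation. The expectation holds shares fixed. Where the share of 1 gene varies, a partner that only gives way in proportion therefore also has a negative deviation with it. A pair was taken to hold when its deviation had the same sign and a size of at least 0.1 in every library. Cells of a library are not replicates, so no p-value was computed over cells, and with 1 library against 3 no p below 0.25 could be reached.

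The 10 genes differed widely in how much their share varied between cells. RHOB was the most abundant by UMIs and the most variable relative to counting in human 1 to 3. Of 100 gene UMIs, the mean cell had 30.8 of RHOB in human 1, 30.1 in human 2, 22.2 in human 3 and 26.2 in human 6. The variance of RHOB over cells was 3.63, 2.61, 2.26 and 1.23 times the counting variance in human 1, 2, 3 and 6. RHOB therefore spread beyond counting in all 4 libraries and least in human 6. In human 1 the 5th and 95th percentiles of RHOB were 17 and 47 UMIs, where counting alone gave 23 and 39. In human 6 they were 18 and 34, where counting gave 19 and 34. UMI levels are not compared between genes here as transcript numbers, because probe number and efficiency per gene were not analysed.

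**Figure D1:**
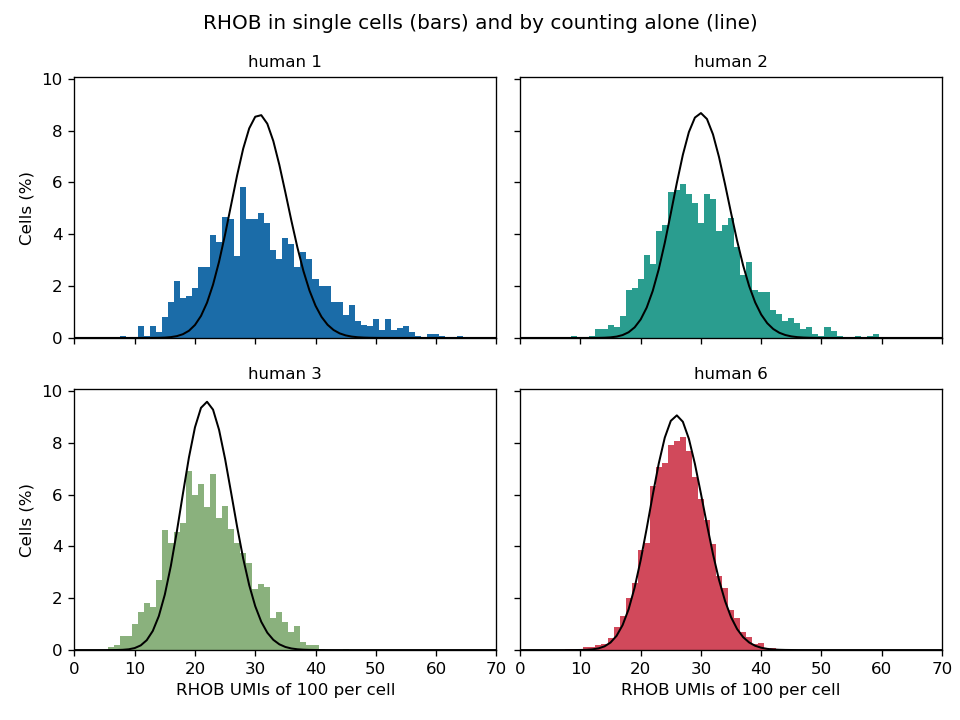
Share of cells (%) by RHOB UMIs out of 100 gene UMIs per cell in each of the 4 human libraries (bars, 1 draw per cell), with the distribution given by counting alone (line). The bars are wider than the line in human 1 to 3 (5th to 95th percentile 17 to 47 UMIs in human 1) and nearly follow it in human 6 (18 to 34 UMIs).

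PUM2, with a mean of 16.3, 18.4, 18.6 and 17.4 UMIs of 100, had variance ratios of 1.74, 1.59, 1.87 and 1.22. Its neighbour LAPTM4A had ratios of 1.45, 1.25, 1.60 and 1.14, and ARHGAP5 had 1.40, 1.24, 1.26 and 1.08. Of the neuronal genes AKAP6 had 1.34, 1.33, 1.37 and 1.30, NPAS3 1.26, 1.32, 1.36 and 1.03, and TENM3 1.25, 1.21, 1.37 and 1.13. They lay close together in human 1 to 3, and in human 6 NPAS3 was near counting while AKAP6 was not. Over all cells, human 6 was the lowest library for each of these 6 genes.

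Among the genes of general cell upkeep, PSMA6 had variance ratios of 1.30, 1.18, 1.28 and 1.11. DCTD had 1.19, 1.15, 1.14 and 1.12, the lowest of the 10 genes in human 1 to 3 but not in human 6, where NPAS3, ARHGAP5 and PSMA6 were lower. BAZ1A had 1.32, 1.96, 1.86 and 1.40, and was the 1 gene for which human 6 did not lie below human 1 to 3. Its value in human 2 rested largely on 1 cell, which had 292 BAZ1A UMIs of 682 (42.8%). Its value in human 3 rested in part on 1 cell, which had 327 of 841 (38.9%). Without the cell highest in each gene, BAZ1A had 1.26, 1.25, 1.49 and 1.37. Such cells also occurred in human 6, where 1 cell had 1375 AKAP6 UMIs of 1838 (74.8%) and another 565 PUM2 UMIs of 723 (78.1%).

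The variance ratio of human 6 was below that of all of human 1 to 3 for 9 of 10 genes (90%) and above it for 0 of 10 (0%). Averaged over genes it was 1.59, 1.48, 1.54 and 1.18 in human 1, 2, 3 and 6. This order held among shallow cells, and not among deep ones. In cells with fewer than 200 gene UMIs the averages were 1.82, 1.54, 1.56 and 1.10. In cells with at least 300 they were 1.53, 1.46, 1.52 and 1.82, with 894, 684, 660 and 375 cells, where the average of human 6 was raised most by AKAP6. In these cells human 6 was the lowest library for NPAS3 (1.06) and within the range of the others for RHOB (1.98), BAZ1A (2.37), ARHGAP5 (1.24) and TENM3 (1.31). Leaving out the cell highest in each gene the averages were 1.51, 1.32, 1.38 and 1.60, the PUM2 ratio of these human 6 cells going from 2.22 to 1.45 and that of AKAP6 from 3.77 to 2.99, so the size of the spread in deep human 6 cells rested in part on 3 cells.

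**Figure D2:**
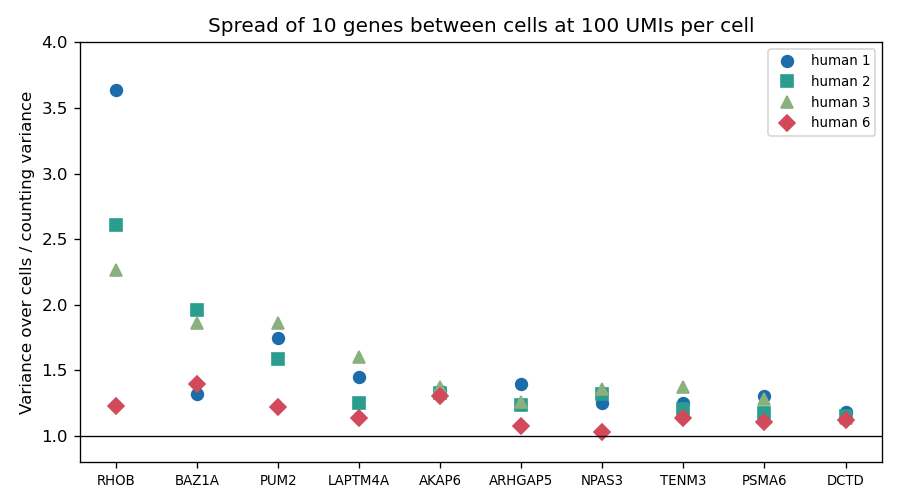
Variance over cells at 100 gene UMIs divided by the counting variance (vertical axis, 1 means counting alone) for the 10 genes, 1 point per library. RHOB reached 3.63 in human 1, and human 6 lies below the other libraries for every gene except BAZ1A.

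No pair of genes held in all 4 libraries: 0 of 45 pairs (0%) had a deviation of the same sign and at least 0.1 in size in each. In human 1 to 3, 4 of 45 pairs held (8.89%). In these libraries PUM2 lay above expectation with ARHGAP5 and with LAPTM4A, and RHOB lay below it with PUM2 and with ARHGAP5. Pairs of at least 0.1 in size numbered 14 in human 1, 4 in human 2, 8 in human 3 and 2 in human 6. The mean size of a deviation over the 45 pairs was 0.0869, 0.0472, 0.0553 and 0.0389.

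The sign of a deviation was shared more often than its size. It was the same in all 4 libraries for 27 pairs, 19 above expectation (42.2% of 45) and 8 below (17.8%). Of the 31 pairs with 1 sign in human 1 to 3, 27 had that sign in human 6 too. At a smaller minimum of 0.05, 3 pairs (6.67%) passed in all 4 libraries: BAZ1A with PSMA6 above expectation, and RHOB with ARHGAP5 and with BAZ1A below it. RHOB was below expectation with 8, 9, 7 and 6 of its 9 partners in human 1, 2, 3 and 6, and of the 36 pairs without RHOB 32, 32, 23 and 23 were above. These counts are not independent of each other, because shares of a fixed total of 100 UMIs must fall when the share of RHOB rises.

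**Figure D3:**
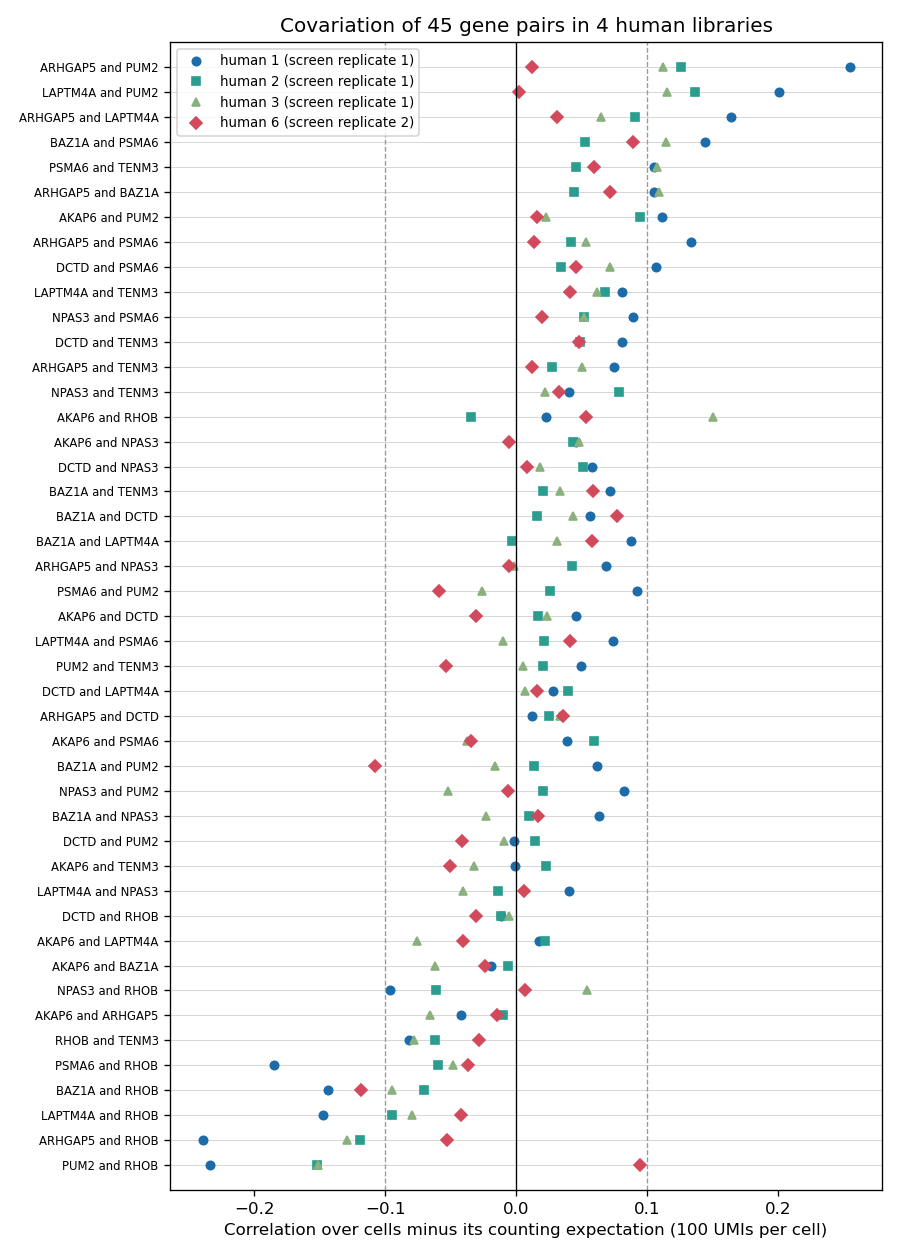
Deviation of the correlation over cells from its counting expectation (horizontal axis, no unit) for all 45 gene pairs, 1 point per library and dashed lines at a size of 0.1, ordered by the mean of human 1 to 3. No pair has all 4 points beyond the same dashed line, and the human 6 point of PUM2 and RHOB lies at 0.0946 against -0.233 to -0.151 in human 1 to 3.

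Human 6 lay outside the range of human 1 to 3 for 25 of 45 pairs (55.6%), below it for 18 (40%) and above it for 7 (15.6%). Every pair has a highest and a lowest library, so a count of this kind does not by itself show a departure. For 19 of 45 it was nearer to 0 than each of the others. The pair farthest outside was that of PUM2 and RHOB. Its deviation was -0.233 in human 1, -0.152 in human 2 and -0.151 in human 3, a mean of -0.179 ± 0.0471 (SD, n = 3). In human 6 it was 0.0946, at a distance of 0.246 from the nearest of the others and of opposite sign. The correlations themselves were -0.528, -0.464, -0.407 and -0.178, where counting alone gave -0.294, -0.312, -0.255 and -0.273. Cells rich in RHOB were thus poorer in PUM2 than counting gave in human 1 to 3, and less poor than counting gave in human 6.

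PUM2 and RHOB are neighbours on chromosome 2 of GRCh38 and are transcribed away from each other. PUM2 spans chr2:20248691-20352234 on the minus strand and RHOB chr2:20447074-20449445 on the plus strand, 94.8 kb apart, with LAPTM4A at chr2:20032650-20052028 on the far side of PUM2. Both promoters are shown because this pair changed sign between libraries. Each is the 250 bases before a transcript start in RefSeq (GRCh38.p14), written 5′ to 3′ along the gene, with capitals for CCAAT and GGGCGG on either strand (CCAAT reads ATTGG and GGGCGG reads CCGCCC on the other). The RHOB window is chr2:20446824-20447073, plus strand, and the PUM2 window, the outermost of 3 listed starts, is chr2:20352254-20352503, minus strand.
RHOB: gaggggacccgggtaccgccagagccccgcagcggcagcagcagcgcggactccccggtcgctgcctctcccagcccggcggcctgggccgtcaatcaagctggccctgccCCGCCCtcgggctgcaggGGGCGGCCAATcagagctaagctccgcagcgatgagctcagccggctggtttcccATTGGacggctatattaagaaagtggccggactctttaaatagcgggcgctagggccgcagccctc
PUM2: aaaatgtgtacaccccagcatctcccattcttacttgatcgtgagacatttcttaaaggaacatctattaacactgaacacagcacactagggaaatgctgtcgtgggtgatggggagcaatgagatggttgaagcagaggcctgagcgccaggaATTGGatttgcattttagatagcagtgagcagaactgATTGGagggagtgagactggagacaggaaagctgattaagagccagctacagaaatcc
The RHOB window held 2 matches of CCAAT and 2 of GGGCGG, with 1 CCAAT directly after a GGGCGG, and this PUM2 window held 2 matches of CCAAT. The windows of the other PUM2 starts, at chr2:20350985-20351234 and chr2:20350845-20351094, held 0 matches of CCAAT, 1 and 2 of GGGCGG and 1 of CACGTG each. Of 35116 RefSeq promoter windows of 250 bases, 32.0% held CCAAT and 42.6% GGGCGG. Among the 9 of 10 panel genes with a window, 5 held CCAAT and 8 held GGGCGG in at least 1 window. Some of these genes had up to 3 windows, so these counts per gene cannot be read against the shares per window. TATAAA (10.7% of all windows) and TGACGTCA (1.65%) were in the windows of 0 panel genes, and CACGTG (6.34%) in those of 1. A match is a description of the letters and not a binding site.

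The size of this opposition in molecules was read from the cells lowest and highest in RHOB (about the lowest and highest 25% of each library). Between these cells PUM2 went from 19.3 to 12.7 UMIs of 100 in human 1, from 21.2 to 15.7 in human 2, from 20.9 to 15.9 in human 3 and from 18.1 to 16.3 in human 6. A gene that only gave way in proportion would go from 18.6 to 13.5, from 20.7 to 16.2, from 20.3 to 16.7 and from 18.7 to 16.0. Beyond proportion PUM2 thus changed by -1.45, -0.986 and -1.44 UMIs in human 1, 2 and 3, and by 0.802 in human 6. Read the other way, between cells low and high in PUM2, RHOB went from 37.0 to 25.6 UMIs in human 1, from 34.0 to 26.0 in human 2, from 25.3 to 19.2 in human 3 and from 27.1 to 24.9 in human 6. Its changes beyond proportion were -7.26, -3.58, -2.71 and 0.711, so RHOB fell more than its proportion in human 1 to 3 and less in human 6.

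In the RHOB split AKAP6 moved opposite to PUM2 in human 1 to 3 and in the same direction in human 6. Its change beyond proportion was 2.30, 0.726, 2.33 and 0.690 UMIs in human 1, 2, 3 and 6, so it gave way less than proportionally in all 4 libraries. BAZ1A changed by -0.221, -0.335, -0.395 and -0.515, and ARHGAP5 by -1.01, -0.0468, -0.589 and -0.301. Both gave way more than proportionally in every library, though ARHGAP5 hardly so in human 2. LAPTM4A changed by -0.0646, -0.151, -0.570 and -0.343, and the remaining genes lay between -0.460 (PSMA6 in human 1) and 0.815 (DCTD in human 1), with both signs among the libraries. The deviation and the change beyond proportion can differ in sign. In human 2, AKAP6, DCTD, PSMA6 and TENM3 had deviations with RHOB of -0.0344, -0.0113, -0.0598 and -0.0621. Their changes beyond proportion there were 0.726, 0.565, 0.193 and 0.167, while the other genes were negative in both measures.

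**Figure D4:**
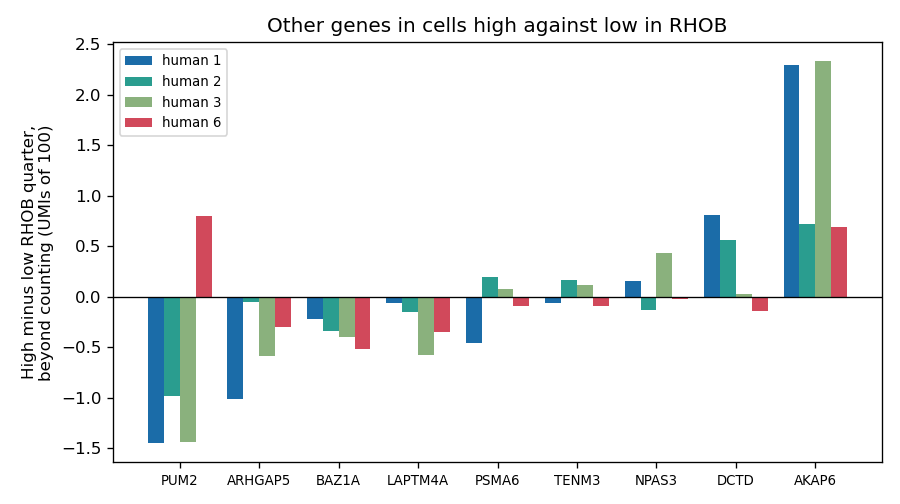
Change of each other gene from the cells lowest to the cells highest in RHOB, beyond the change that proportional loss gives (vertical axis, UMIs of 100), 1 bar per library. PUM2 lies at -1.45, -0.986 and -1.44 in human 1 to 3 and at 0.802 in human 6, while AKAP6 lies above 0 in all 4.

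RHOB and ARHGAP5, the GTPase and the GTPase-activating protein on the panel, lay below the counting expectation in every library. Their deviation was -0.239, -0.119, -0.129 and -0.0528 in human 1, 2, 3 and 6. In human 1 to 3 the mean was -0.163 ± 0.0668 (SD, n = 3), and human 6 lay 0.066 above the nearest of them, about as far as that SD. In cells with at least 200 gene UMIs the pair passed 0.1 in all 4 libraries, at -0.234, -0.112, -0.138 and -0.116, and it was the 1 pair of 45 that did so. Proportional loss can make up part of such deviations. Beyond proportion, ARHGAP5 changed in the RHOB split by -1.01, -0.0468, -0.589 and -0.301 UMIs in human 1, 2, 3 and 6.

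PUM2 and ARHGAP5, on different chromosomes, varied together in human 1 to 3 with deviations of 0.255, 0.126 and 0.112 (mean 0.164 ± 0.0786, SD, n = 3). Human 6 had 0.0120, at a distance of 0.1 from the lowest of these. PUM2 and LAPTM4A, 197 kb apart on chromosome 2, had 0.201, 0.137 and 0.115 (mean 0.151 ± 0.0446) and in human 6 0.00200, at a distance of 0.113. Both pairs were near the counting expectation in human 6. With RHOB taken out of the total and cells compared at 50 UMIs of the remaining 9 genes, PUM2 and ARHGAP5 had 0.0982, 0.0411, 0.0439 and 0.0129, against 0.154, 0.0736, 0.0674 and 0.00609 at 50 UMIs of all 10. PUM2 and LAPTM4A had 0.0303, 0.0446, 0.0406 and 0.00824, against 0.121, 0.0806, 0.0726 and 0.00358. In human 1 to 3, then, both deviations were smaller without RHOB, that of PUM2 and LAPTM4A most in human 1. The minimum of 0.1 was not applied to the values without RHOB, because deviations tend to be smaller at fewer UMIs by construction. With RHOB kept, both pairs also lay below 0.1 at 50 UMIs in human 2 and 3.

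BAZ1A and PUM2 were the remaining pair of the 5 in which human 6 lay farthest outside. Their deviation was 0.0615, 0.0139 and -0.0158 in human 1 to 3 (mean 0.0199 ± 0.0390, SD, n = 3), with both signs, and -0.107 in human 6, at a distance of 0.0916. That human 6 value was -0.0489 without extreme cells and -0.165 in cells with at least 200 gene UMIs. It was -0.233 at 200 UMIs, where deviations tend to be larger by construction. BAZ1A and RHOB, chosen after their values were seen because human 6 lay within the range of the others, had -0.143, -0.0706, -0.0948 and -0.119, a mean of -0.107 ± 0.0313 (SD, n = 4). BAZ1A and PSMA6, neighbours 403 kb apart on chromosome 14 and also chosen after their values were seen, had 0.144, 0.0526, 0.114 and 0.0891. These BAZ1A pairs with RHOB and PSMA6 kept 1 sign in all 4 libraries and a size above 0.05.

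The main direction of covariation beyond counting was a contrast of RHOB against most other genes in each library, with PUM2 and AKAP6 on different sides in different libraries. The leading axis of the excess covariance, which weights genes by how much they vary in UMIs, held 80.5%, 71.7%, 52.6% and 41.2% of the excess variance in human 1, 2, 3 and 6. RHOB had loadings of -0.919, -0.915, -0.830 and -0.722 on it. PUM2 had 0.306, 0.338 and 0.500 in human 1 to 3, opposite to RHOB, and -0.395 in human 6, on the side of RHOB. AKAP6 had 0.0653 and 0.126 in human 1 and 2, opposite to RHOB, and -0.0959 and -0.189 in human 3 and 6, on its side. NPAS3 had -0.0303 in human 3, on the side of RHOB, and 0.0533, 0.0586 and 0.0360 in human 1, 2 and 6. BAZ1A had 0.0412, 0.0409 and 0.0480 in human 1 to 3 and 0.301 in human 6.

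Depth was followed within each library, because human 6 was shallower. For PUM2 and RHOB, human 6 had 0.0488 in its 3973 cells with fewer than 150 gene UMIs, 0.0872 in 1803 cells with 150 or more but fewer than 200, 0.188 in 955 cells with 200 or more but fewer than 300 and 0.237 in 375 cells with at least 300. Human 3 had -0.118, -0.235, -0.194 and -0.0530 in the same classes, with 145, 303, 582 and 660 cells. In the classes from 150 UMIs up, human 1 had -0.272, -0.241 and -0.217, with 92, 340 and 894 cells. Human 2 had -0.241, -0.176 and -0.113 in these classes, with 87, 384 and 684 cells. Human 6 thus lay apart from human 1 to 3 from 150 UMIs up, and below that from human 3, the 1 library compared there. Its deviation was farther from 0 the deeper the cells. Without the cell highest in each gene, the deepest class gave -0.224, -0.124, -0.0755 and 0.327 in human 1, 2, 3 and 6. In 12 of 12 settings that keep both genes and thin the cells, human 1 to 3 were all below expectation (-0.304 to -0.0530) and human 6 above it (0.0440 to 0.327).

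**Figure D5:**
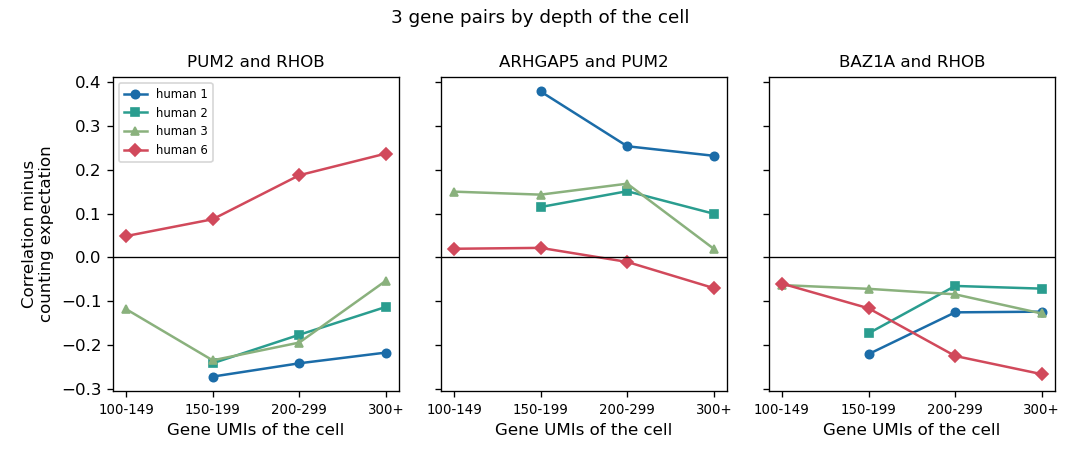
Deviation of 3 gene pairs (vertical axis, no unit) in cells of 4 depth classes (horizontal axis, gene UMIs of the cell), 1 line per library, all at 100 UMIs per cell; classes below 150 UMIs are shown for human 3 and human 6. For PUM2 and RHOB human 6 goes from 0.0488 to 0.237 while human 1 to 3 stay below 0.

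Other pairs of human 6 also moved with depth. BAZ1A and RHOB had -0.0595, -0.116, -0.225 and -0.266 in human 6 from the shallowest class to the deepest, and -0.0629, -0.0715, -0.0840 and -0.128 in human 3. For PUM2 and ARHGAP5 the classes of human 6 gave 0.0199, 0.0219, -0.0101 and -0.0699, and those of human 3 gave 0.15, 0.143, 0.168 and 0.0197. The deviations of human 6 over all its cells are therefore weighted towards its shallow cells. What the depth of a cell stands for in human 6 was not tested.

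Pairs of neighbouring genes were compared with other pairs, since the panel holds 5 genes of chromosome 14, 3 of chromosome 2 and 2 of chromosome 4. The 14 pairs of 1 locus had median deviations of 0.0660, 0.0429, 0.0229 and 0.00771 in human 1, 2, 3 and 6, and the 31 other pairs 0.0497, 0.0209, 0.0179 and 0.00864. The difference was at most 0.0220 and negative in human 6, where the mean size of a deviation over all pairs was 0.0389 to 0.0869 by library. The minimum of 0.1 was set for single pairs and is not applied to a difference of medians. The 3 pairs of chromosome 2 ranged from -0.233 to 0.201 in human 1 alone, so neighbours were not alike among themselves. DCTD and TENM3 on chromosome 4 had 0.0805, 0.0491, 0.0480 and 0.0483.

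By role, the 6 pairs among the upkeep genes PSMA6, LAPTM4A, DCTD and BAZ1A had medians of 0.0807, 0.0275, 0.0372 and 0.0517, with 6, 5, 5 and 6 of the 6 above expectation, where the median of all 45 pairs was 0.0561, 0.0223, 0.0179 and 0.00864. The 3 pairs among the neuronal genes AKAP6, NPAS3 and TENM3 had medians of 0.0403, 0.0434, 0.0223 and -0.00575, with 2, 3, 2 and 1 above expectation. Neither group has a pair with RHOB, while 9 of the 45 pairs do, most of them below expectation. Of the 36 pairs without RHOB, 32, 32, 23 and 23 were above. The median of all 45 pairs is therefore not a like comparison for either group. AKAP6 and RHOB had 0.0231, -0.0344, 0.15 and 0.0534, with 1 of 4 libraries past 0.1.

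The counts of pairs that held changed little without assigned cells or without shared cell barcodes. Leaving out the cells assigned to 1 guide, 0 pairs held in all 4 libraries and 5 in human 1 to 3, among them the same 4 pairs. Leaving out cells whose barcode occurred in another library, 0 held in all 4 and the same 4 in human 1 to 3. Human 6 had 3 assigned cells, or 0.0397% of its cells, against 17.6% to 24.7% in human 1 to 3, so the first of these alternatives hardly changes it. It also keeps cells with mixed guide barcodes, the median used cell of human 1 to 3 having 1241 to 1281.5 guide UMIs. The effect of guides on covariation was therefore not tested.

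The other human libraries of screen replicate 2, human 4 and human 5, carried another panel with 7 of the 10 genes, without RHOB, PUM2 and LAPTM4A. At 50 UMIs of the 7 shared genes their average variance ratios were 1.91 and 1.73, against 1.28, 1.27, 1.30 and 1.13 in human 1, 2, 3 and 6. Human 4 and 5 shared 1060 cell barcodes with each other, and 1003 and 995 with chimpanzee 3. They also differ from human 6 in panel. Chimpanzee 5, with the panel and screen replicate of human 6, had 1.18, below the 1.89 and 1.95 of chimpanzee 1 and 2. On all 10 genes at 100 UMIs it had 1.30, against 2.01 and 2.14. The library of screen replicate 2 with this panel was thus the least variable of its species in both human and chimpanzee libraries of the panel. Of 21 pairs, 0 (0%) held in all 6 libraries at a minimum of 0.05 and 5 (23.8%) had 1 sign. AKAP6 and BAZ1A lay below expectation in all 6, by -0.0768, -0.0430, -0.0871, -0.315, -0.289 and -0.0808 in human 1 to 6. It missed the minimum in human 2 and was largest in size in human 4 and 5. Without shared barcodes it was -0.316 and -0.308 there. That setting kept 1338 of 1383 and 2627 of 2934 cells, so it could change these values little. Whether mixing between libraries bears on this pair was not tested.

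Beside the human libraries, the 3 chimpanzee libraries with the 10 genes had PUM2 and RHOB at -0.177, -0.152 and -0.0971 in chimpanzee 1, 2 and 5, all below expectation. RHOB and ARHGAP5 had -0.137, -0.167 and -0.113, PUM2 and ARHGAP5 0.0977, 0.0952 and 0.108, and PUM2 and LAPTM4A 0.0674, 0.103 and -0.113. The mean size of a deviation over the 45 pairs was 0.0571 ± 0.0210 in the human (SD, n = 4) and 0.108 ± 0.0349 in the chimpanzee libraries (SD, n = 3). An exact two-sided permutation test gave p = 0.114 over 35 splits. With so few libraries it could give no p below 0.0571, so it cannot decide whether the species differ.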

How the data were processed

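Values were whole-number UMI counts per cell barcode and probe column, deposited by the authors as 1 table per library, per the file headers. Per the submitters' processing notes, the tools were Bowtie, fastp, SAMtools and UMI-tools, with hg38 as the build. Tool versions and the cell barcode filter are not given in the sources used. The counts held 0 values that were not whole. Guide barcodes were left out of the gene total. Cells with at least 100 gene UMIs were used, and no doublet caller was run, so doublets remain. The gene totals of any 2 of the 4 libraries differed by a chi-square of 609.96 or more per degree of freedom, so no library was taken for a repeat of another.

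Covariances at 100 UMIs were averaged over all possible draws by falling factorials, and the multinomial correlation of the library mean was subtracted. The low and high cells of 1 gene, and the distribution of RHOB, came from 1 seeded draw. The leading axis is the first eigenvector of the covariance minus the multinomial covariance. A cell was assigned to a guide barcode with at least 5 UMIs and 70% of its guide UMIs. Calculations used Python 3.11.15, NumPy 2.4.6, pandas 2.3.3 and SciPy 1.17.1, and were tested on simulated counts. The deviations carry counting error besides the spread between libraries. The settings tried were other UMI totals and depth ranges, extreme cells, omitted genes, assigned cells, shared barcodes, other minimum sizes and each library left out. Promoter letters came from RefSeq, which had windows for 9 of 10 genes. Gene positions came from GENCODE on GRCh38.

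By rule, named pairs were those that held in all 4 libraries, of which there were 0, and the 5 in which human 6 lay farthest outside human 1 to 3, with the pairs of 1 locus summarised and all 10 genes named. Other named pairs were chosen after their values were seen. The members and lists were chosen with earlier results of these data known.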

Additional observations from a re-analysis of the deposited data

Results flagged for a closer look

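In groups of 4 libraries, 5 of 71 values examined had 1 library far from the other 3, beside 3.55 that chance would give, since chance sets apart about 1 group in 20. The leading guide barcode took a median of 7.92% of guide UMIs in human 6, against 44.9%, 48.2% and 50.8% in the others. Human 6 also gave 7106 cells, against 1192, 1354 and 1690. For AKAP6 and NPAS3, neighbours on chromosome 14, human 6 had a deviation of -0.00575, while the other libraries lay between 0.0434 and 0.0477. For DCTD and TENM3 human 1 had 0.0805 and the others 0.0480 to 0.0491. For PSMA6 and RHOB human 1 had -0.185 and the others -0.0598 to -0.0365. The PUM2 and RHOB pair was not among them, since its values in human 1 to 3 differed too much from each other.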

How the results depend on the processing

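Recomputed, the main counts and averages stayed near their value 86 times and moved 20 times. The count of pairs that held in all 4 libraries (0) became 1 at 200 gene UMIs and 1 in cells with at least 200, both times RHOB and ARHGAP5, 3 at a minimum of 0.05, and 0 to 4 with each library left out (4 without human 6). The count for human 1 to 3 (4) became 0 at 50 UMIs of all 10 genes, 0 at 50 UMIs without RHOB, 0 at 50 UMIs without PUM2, 0 in cells with at least 300 UMIs (also 0 there without the cell highest in each gene), 11 at a minimum of 0.05, 1 at 0.15, and 4 to 7 with each library left out (7 without human 2). The mean variance ratio over genes and libraries, 1.45, became 1.22 at 50 UMIs, 2.02 at 200, and, at 50 UMIs of 9 genes, 1.19 without RHOB and 1.25 without PUM2. Lower depth and the omitted gene changed together in the last of these, and 1.22 is their comparison. The count for human 1 to 3 at 50 UMIs cannot show an effect of the omitted gene, because it was 0 there with all 10 genes too. Among the 7 genes of both panels the count of 0 became 0 to 1 with each library left out (1 without human 2). Human 6 lay outside human 1 to 3 for 23 to 32 of 45 pairs, for 22 and 23 of 36 without PUM2 and without RHOB, and outside the remaining libraries for 30 to 34 of 45 when 1 of human 1 to 3 was left out. The fewer libraries are compared, the more often any of them is the highest or lowest. The last of these counts is thus higher by arithmetic, and none of them by itself shows a departure.

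Raw UMIs per cell, where all genes rise with a cell's total, gave 45 pairs above 0 in all 4 libraries and 45 in human 1 to 3, and neighbours against other pairs at -0.0331. They also reversed RHOB and ARHGAP5 (0.629, mean of human 1 to 3), PUM2 and RHOB (0.750), BAZ1A and RHOB (0.347, and 0.448 in human 6) and BAZ1A and PUM2 in human 6 (0.402). The settings of cells with at least 300 UMIs, without the cell highest in each gene, and both together were chosen after seeing the data. No paired analysis was possible because replicate numbers were given in accession order and only name libraries. With 143 gene UMIs in the median cell of human 6, the choice of 100 UMIs decides which of its cells count.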
